A study of Schistosoma mansoni with 6 samples.

Results

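The 4 genes examined here, in the blood fluke Schistosoma mansoni, carry product names of proteins that act in cell division in other organisms. They are a rac GTPase activating protein (Smp_021590), the protein regulator of cytokinesis PRC1 (Smp_016870), the spindle motor kinesin eg-5 (Smp_149260) and the cohesion factor eco1 (Smp_065150). They are 4 of the 10770 genes with exons in the deposited table. They were picked by identifier because their exon reads were much lower after irradiation, so their differences between the groups are given below as descriptions, with no test.

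A dividing animal cell first ties its copied chromosomes together in pairs, then pulls them apart on a spindle of microtubules, and last splits in the middle. Eco1, known best from yeast, is an acetyltransferase that modifies the cohesin ring during DNA copying so that sister chromatids stay paired. Kinesin Eg5 walks on antiparallel microtubules and pushes the spindle poles apart. PRC1 bundles the microtubules that overlap in the middle of the spindle, and a Rac GTPase activating protein of animals works there with a kinesin to place the cleavage furrow. In the body of adult flatworms cell division is the work of stem cells, the neoblasts, which gamma rays remove or arrest.

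All worms were adult males of the NMRI strain taken from mice 43 days after infection and kept in culture for 48 hours, and they carried no transgene or other alteration that the labels name. The 3 irradiated libraries came from worms given 200 Gy of gamma rays before culture and the 3 control libraries from mock-irradiated worms. Each library was a pool of 14 to 18 worms with heads and testes cut away, so it held the posterior body of many cell types and not a sorted stem cell population. Each group has libraries lettered A, B and C. Nothing in the labels ties a pool to its own infection, so the tests see only the variation among these pools, which may be technical.

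Libraries held between 17577059 and 29641087 exon reads. Of the gene reads, which are taken to include introns, 11.7% to 13.1% lay outside exons in 5 libraries and 16.1% in control B. Markers of the body wall, muscle and gut were abundant. Single genes of other tissues, picked by identifier, had few exon reads over the 6 libraries. There were 11 for the boule-related germ cell gene (Smp_144860) and 98 for the meiotic gene spo11 (Smp_131670). The MEG-4 gene of the esophageal gland (Smp_085840) had 5 and an eggshell precursor gene (Smp_000430) had 26. The lists that hold these genes were not low as a whole, by the sums below. Among the 11 testis and meiosis genes tested, edgeR and DESeq2 each called 0, and the unadjusted p of 2 was under 0.05. Of the other lists, edgeR called 3 of 45 tegument genes and 1 of 11 esophageal gland and head genes higher, 2 of 27 muscle genes lower, and none of 13 gut genes and 2 vitelline and eggshell genes. DESeq2 called 6 tegument and 2 esophageal gland and head genes higher, and 4 muscle genes and 1 gut gene lower. Over all 8885 tested genes, edgeR called 2.49% lower and 0.619% higher, and DESeq2 called 490 lower and 127 higher. At an unadjusted p under 0.05 (edgeR), 1184 of them were lower and 735 higher. The summed level of all 13 testis and meiosis genes was 457 to 478 CPM (reads scaled to a common library size) in controls and 440 to 446 after irradiation. That of the 49 tegument genes was 15896 to 17011 and 17650 to 19029 CPM, and that of the 16 gut genes 24051 to 26272 and 22949 to 23974. The sums of the other lists overlapped between the groups, at 24336 to 25303 and 23134 to 24947 CPM for muscle, 2384 to 2555 and 2409 to 2473 for esophageal gland and head, and 820 to 887 and 778 to 845 for vitelline and eggshell genes. Whether these shifts of tissue markers have a part in the values below was not tested.

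The rac GTPase activating protein gene was nearly silent in exons after irradiation while its intronic reads stayed near the control level. The file annotates its product with GTPase activator activity and with zinc and diacylglycerol binding, and does not say to which family of Rac GTPase activating proteins it belongs. Controls A, B and C gave it 184, 172 and 121 exon reads, and the irradiated libraries, in the same order, 5, 4 and 4. Scaled, these are 6.86, 7.52 and 6.91 CPM against 0.169, 0.185 and 0.167 CPM. Every irradiated library lay below every control. The irradiated levels lay close together but rest on 4 or 5 reads each, so their spread is poorly measured. The mean was 7.10 ± 0.370 CPM in controls and 0.174 ± 0.00990 CPM after irradiation (SD, n = 3). This is 40.8-fold lower, with an exact 95% interval of 23.8 to 77.6 that covers counting error only, as do all such intervals here. It was the third lowest ratio among 8885 tested genes.

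Reads across exon-exon joins, which come from spliced RNA, went the same way for the rac GTPase activating protein. There were 68, 69 and 48 such reads in controls and 3, 3 and 0 after irradiation, 34.5-fold lower (interval 15.5 to 95.1). The log2 ratio was -5.11, and -5.77 without irradiated B and -4.52 without irradiated C. Intronic reads, taken as gene reads minus exon reads, were 74, 74 and 43 in controls and 71, 58 and 50 after irradiation. The groups overlapped in intronic level, at 2.45 to 3.24 CPM and 2.09 to 2.69 CPM. The intronic level after irradiation was 84.9% of the control mean (interval 68.0% to 103.4%), against 2.45% for exon reads (1.29% to 4.21%). Introns thus held 28.7%, 30.1% and 26.2% of the gene's reads in controls and 93.4%, 93.5% and 92.6% after irradiation. Reads across an intron-exon border were too few to compare, 2 in controls and 0 after irradiation. The 2 in controls stood beside 191 intronic reads, while kinesin eg-5 had 11 border reads beside 17 intronic reads in controls. Whether the intronic reads come from unspliced RNA of this gene was not tested.

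**Figure D1:**
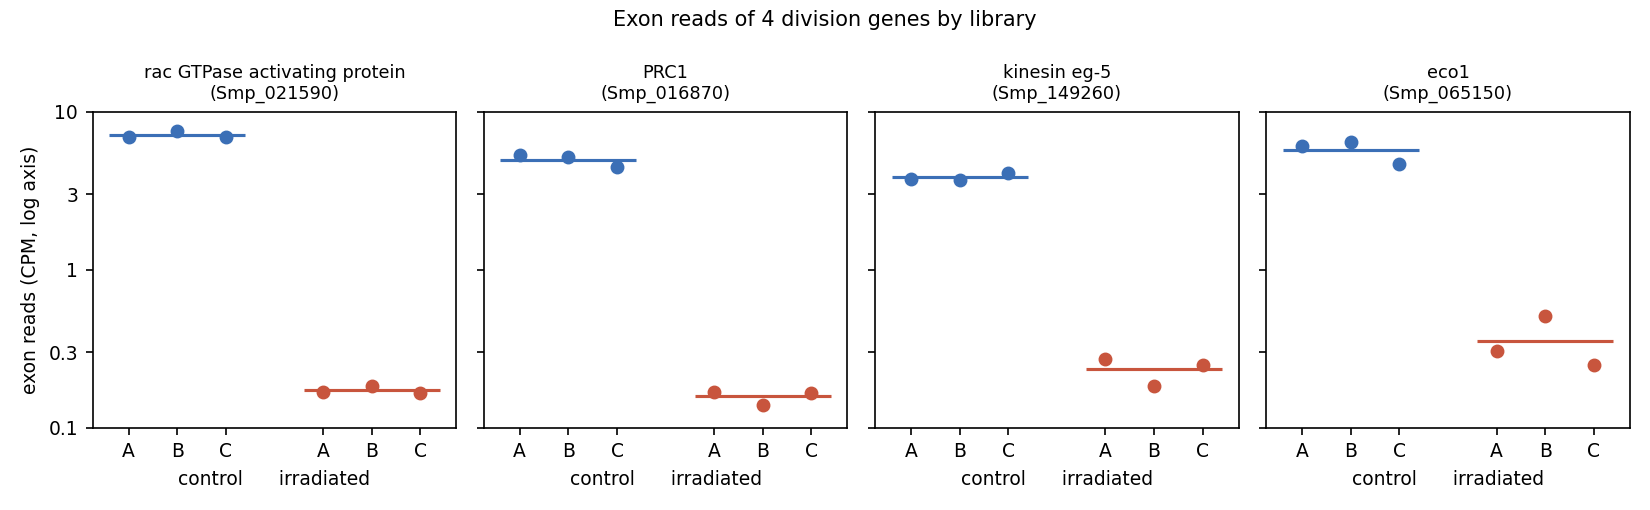
Exon reads of the 4 genes in each library, in CPM on a log axis, with 1 point per library (A, B and C) and a line at the mean of each group. For each gene the 3 irradiated libraries sit below the 3 controls, from 0.139 to 0.509 CPM against 3.67 to 7.52 CPM.

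PRC1 showed the same contrast between exons and introns, with fewer reads. It had 142, 118 and 78 exon reads in controls and 5, 3 and 4 after irradiation, or 5.30, 5.16 and 4.45 CPM against 0.169, 0.139 and 0.167 CPM. The mean was 4.97 ± 0.453 CPM in controls and 0.158 ± 0.0169 CPM after irradiation, 31.4-fold lower (interval 17.8 to 61.5). The groups lay far apart in exon reads. Exon-exon reads numbered 56, 42 and 31 in controls and 3, 2 and 1 after irradiation, 24.2-fold lower (interval 10.7 to 66.7).

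In the introns of PRC1 there were 26, 38 and 19 reads in controls and 26, 15 and 12 after irradiation. In level this is 0.970, 1.66 and 1.08 CPM against 0.879, 0.694 and 0.502 CPM, so the groups did not overlap, though the highest irradiated library was close to the lowest control. The intronic level after irradiation was 55.8% of the control mean (interval 39.7% to 81.6%). The intronic share of PRC1 reads was 15.5%, 24.4% and 19.6% in controls and 83.9%, 83.3% and 75.0% after irradiation. Reads across an intron-exon border numbered 1 in controls and 0 after irradiation.

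Kinesin eg-5, in contrast, had few intronic reads in controls and none after irradiation. Its exon reads were 101, 84 and 72 in controls and 8, 4 and 6 after irradiation, or 3.77, 3.67 and 4.11 CPM against 0.270, 0.185 and 0.251 CPM. The mean was 3.85 ± 0.230 CPM in controls and 0.235 ± 0.0447 CPM after irradiation, 16.4-fold lower (interval 9.90 to 27.4). The irradiated libraries were all low and differed among themselves by no more than 4 reads. Exon-exon reads numbered 27, 39 and 28 in controls and 3, 2 and 1 after irradiation, 18.3-fold lower (interval 7.75 to 48.9).

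Introns of kinesin eg-5 gave 10, 3 and 4 reads in controls and 0, 0 and 0 after irradiation. The irradiated level was thus 0% of the control, with an exact interval that reaches 21.7%. Border reads across intron and exon were 4, 3 and 4 in controls and 0, 0 and 1 after irradiation, the only member with more than 2 of them in a group. Intronic reads made 6.20% of the gene's reads in controls (exact interval 3.66% to 9.75%) and 0 of 18 after irradiation, where the interval reaches 18.5%. That interval holds the control share, so a change in the share was not detectable at this depth.

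Eco1 had the most variable levels of the 4. Its exon reads were 162, 146 and 81 in controls and 9, 11 and 6 after irradiation, or 6.04, 6.39 and 4.62 CPM against 0.304, 0.509 and 0.251 CPM. Control C was the lowest control and irradiated B the highest irradiated library, and the groups stayed more than 4 CPM apart. The mean was 5.68 ± 0.934 CPM in controls and 0.355 ± 0.136 CPM after irradiation, 16.02-fold lower (interval 11.2 to 25.9). Reads across its single exon-exon join were 23, 21 and 10 in controls and 2, 2 and 0 after irradiation, 14.7-fold lower (interval 5.56 to 57.4). This log2 ratio was -3.87, and -4.53 without irradiated B and -3.29 without irradiated C.

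The single intron of eco1 gave 13, 8 and 7 reads in controls and 1, 4 and 0 after irradiation, 17.7% of the control level (interval 4.82% to 41.9%). Irradiated B held 4 of the 5 reads. Without that library the log2 ratio of intronic reads was -4.61 in place of -2.49, so the size of this difference rests on irradiated B. The intronic share was 6.71% in controls (interval 4.51% to 9.56%) and 16.1% after irradiation (interval 5.45% to 33.7%), intervals that overlap. Without irradiated B the latter share was 6.25%, below that of the controls. Border reads were 2 in controls and 0 after irradiation.

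All 4 genes were called lower by the edgeR fit, as 2.49% of the 8885 tested genes were, and at least 10-fold lower, as 0.304% were. Their groups did not overlap in exon reads, which held for 13.3% of tested genes in that direction, nor in exon-exon reads, against 11.7%. These counts restate how the genes were chosen. In intronic reads the groups did not overlap for PRC1, kinesin eg-5 and eco1, against 14.3% of tested genes with at least 20 intronic reads, a minimum that kinesin eg-5, with 17, does not reach. Since each library is bulk tissue, fewer cells of a type and less RNA per cell cannot be told apart in any of these values.

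**Figure D2:**
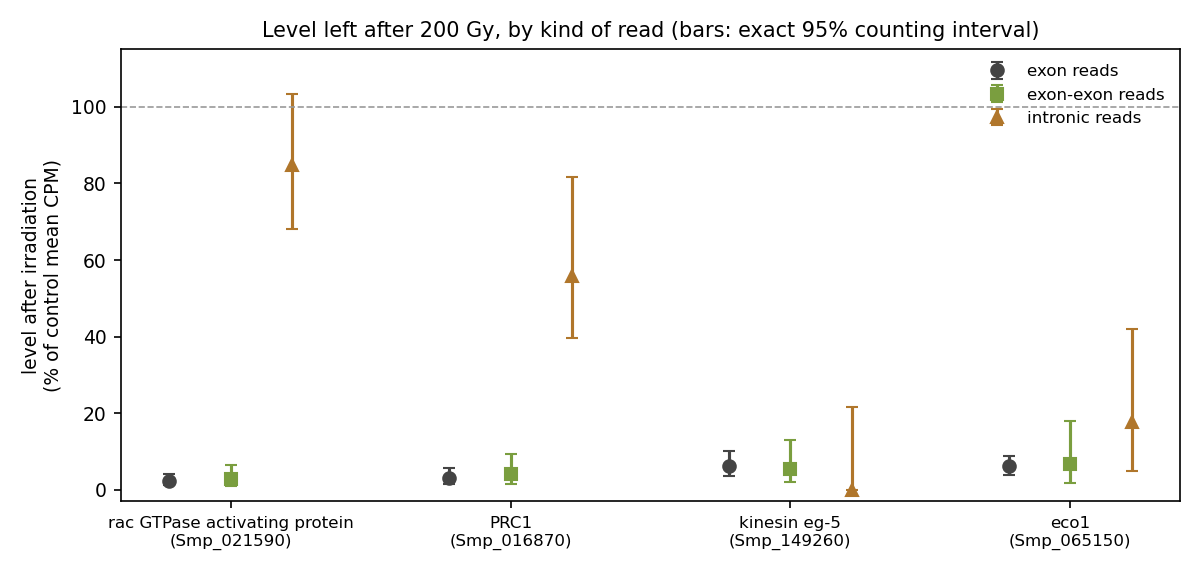
Level after irradiation as a percent of the control mean CPM for exon reads (circles), exon-exon reads (squares) and intronic reads (triangles) of each gene. Bars are exact 95% intervals for counting error. Exon and exon-exon levels were between 2.45% and 6.83% of the control in all 4 genes, and intronic levels were 84.9% for the rac GTPase activating protein, 55.8% for PRC1, 0 for kinesin eg-5 and 17.7% for eco1.

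The intronic values have to be read against the other genes, because intronic reads as a whole were higher in controls. Over 7359 tested genes with at least 20 intronic reads in controls, the median log2 ratio of intronic reads was -0.23, against -0.00 for exon reads. Control B, with its 16.1% of reads outside exons, moved that median the most: without it the median was -0.06. The log2 ratio of intronic reads was -0.24 for the rac GTPase activating protein and -0.12 without control B. For PRC1 it was -0.84, and -0.57 without control B. These ratios of the 2 members compare mean CPM, while the median of -0.23 is over ratios of reads summed per group. From summed reads the 2 members had -0.25 and -0.81 with all libraries. Scaled by each library's total of intronic reads instead, their ratios of mean levels were -0.04 and -0.62. The intronic level of the rac GTPase activating protein was thus close to that of the median gene, and that of PRC1 was lower than the median gene under each of these settings.

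Some of the intronic reads of the rac GTPase activating protein and of PRC1 mapped to several places. Unique intronic reads of the rac GTPase activating protein were 167 in controls and 166 after irradiation. They made 25.9% and 92.7% of its unique gene reads. PRC1 had 77 and 51 unique intronic reads, which made 18.6% and 81.0% of its unique gene reads. Every exon read of the 4 genes was unique. In the RefSeq annotation of assembly ASM23792v2, no other gene overlaps any of the 4, so none of their introns holds an exon of another gene annotated there. The sources do not state which annotation the deposited counts used, so the introns counted may differ from these. No source states that the kit marks strand, so reads from an unannotated RNA on the other strand cannot be told apart.

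Over 9280 genes with at least 20 gene reads in each group, the median intronic share was 14.0% in controls and 12.4% after irradiation. It was higher by at least 20 percentage points after irradiation in 34 genes (0.366%) and lower by as much in 12. The rac GTPase activating protein and PRC1 are among the 34, and 27 of the 34 were called lower in exon reads. In controls the rac GTPase activating protein had an intronic share of 28.6% (interval 25.2% to 32.2%), above the median gene, while PRC1 had 19.7%, eco1 6.71% and kinesin eg-5 6.20%.

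**Figure D3:**
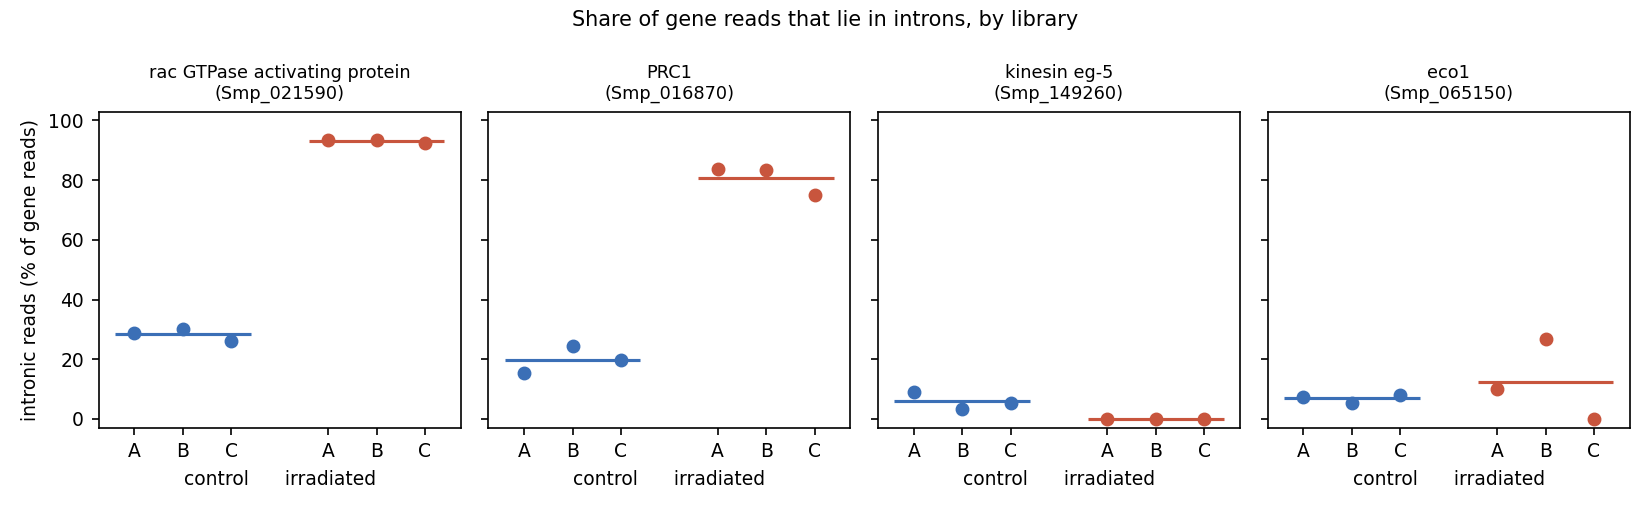
Share of each gene's reads that lie in introns, in percent, with 1 point per library and a line at the mean of each group. The share of the rac GTPase activating protein went from between 26.2% and 30.1% to between 92.6% and 93.5%, and that of PRC1 from between 15.5% and 24.4% to between 75.0% and 83.9%, while kinesin eg-5 was at 0 in each irradiated library.

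Splicing of the few exon reads that remained was measured only roughly. Exon-exon reads made 38.8% of the exon reads of the rac GTPase activating protein in controls and 6 of 13 after irradiation (interval 19.2% to 74.9%). For PRC1 they made 38.2% and 6 of 12 (interval 21.1% to 78.9%), and for kinesin eg-5 36.6% and 6 of 18 (interval 13.3% to 59.0%). Eco1, with 2 exons and 1 join, had 13.9% in controls and 4 of 26 after irradiation (interval 4.36% to 34.9%). In each gene the interval after irradiation holds the control share, so no change in splicing of the remaining RNA was detectable at this depth. Over whole libraries, exon-exon reads made 32.3% to 33.0% of exon reads.

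The gap between exonic and intronic change was common among genes that were called lower. Of the 100 genes called lower by at least 2-fold, 78 had at least 20 intronic reads in controls, 3 of them members. Their median log2 ratio, from reads summed per group, was -2.13 in exon reads and -0.85 in intronic reads. The intronic ratio was the less negative in 72 of 78. Intronic reads were above 50% of the control level in 51 of the 78 and more than 4-fold lower in 8, against 7316 and 8 of all 7359 tested genes with as many intronic reads. Without the 3 members the medians of the other 75 were -2.08 and -0.86. These genes were selected on exon reads, so the larger exonic difference was not tested.

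Eco1 is among the 8 genes whose intronic reads were more than 4-fold lower, and the rac GTPase activating protein has the widest gap between exonic and intronic ratio of the 78. The hypothetical protein Smp_154080, named after its values were seen, had the lowest intronic ratio of the 78. It had 257 intronic reads in controls and 5 after irradiation, and 91 and 3 exon reads. The argonaute gene Smp_179320, named in the file as eukaryotic translation initiation factor 2c, had 26 and 3 intronic reads.

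**Figure D4:**
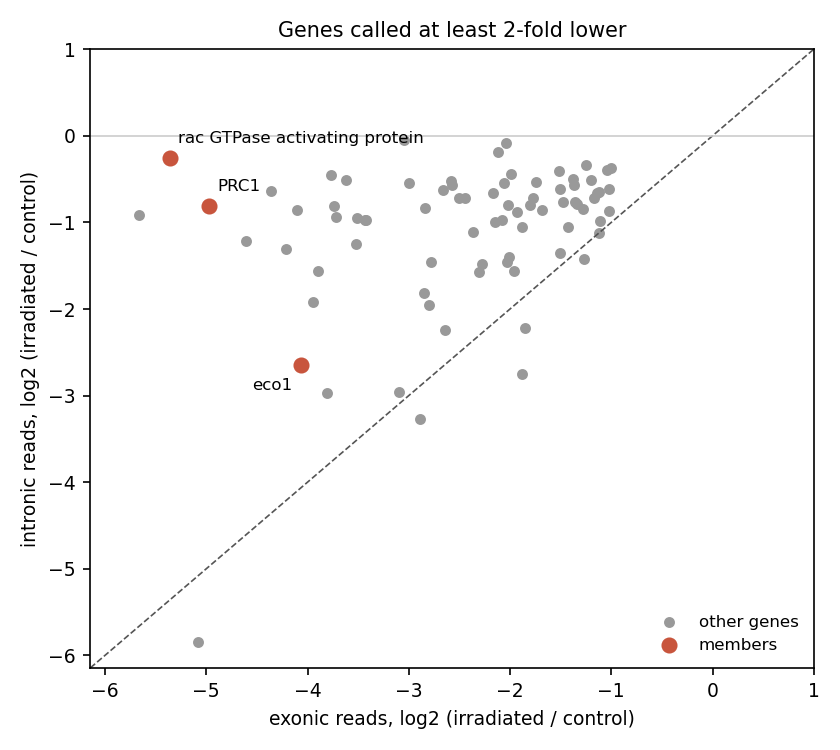
Log2 ratio of irradiated to control for exonic reads (horizontal axis) and intronic reads (vertical axis) in the 78 genes called at least 2-fold lower with at least 20 intronic reads in controls. Ratios here are from reads summed per group, not from mean CPM. The dashed line marks equal change, and 72 of the 78 points lie above it. The rac GTPase activating protein and PRC1 sit at the upper left, and eco1 lies lower; kinesin eg-5 had too few intronic reads.

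The 4 genes were expressed at low levels in control tissue. Per length, in the deposited RPKM (exon reads per length and depth), eco1 was highest in controls at 5.25 ± 0.833 (SD, n = 3). The rac GTPase activating protein followed at 2.96 ± 0.0895 RPKM, then kinesin eg-5 at 2.48 ± 0.174 and PRC1 at 2.34 ± 0.223. The first 3 did not overlap from one to the next. Kinesin eg-5 and PRC1 overlapped, at 2.31 to 2.65 and 2.10 to 2.54 RPKM, so their order is not fixed. Between 8.84% and 17.7% of tested genes had a lower mean control RPKM than these genes.

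After irradiation the order per length was eco1 at 0.333 ± 0.126 RPKM, kinesin eg-5 at 0.154 ± 0.0300, PRC1 at 0.0758 ± 0.00856 and the rac GTPase activating protein at 0.0738 ± 0.00367. Of these, eco1 stood above kinesin eg-5 in all libraries and kinesin eg-5 stood above PRC1. PRC1 and the rac GTPase activating protein did not differ beyond their spread, and both rest on 3 to 5 reads per library. The authors' deposited table gives fold changes of -40.1 for the rac GTPase activating protein, -30.8 for PRC1, -16.1 for kinesin eg-5 and -15.8 for eco1. The gene models of the file have 9 exons and 2040 exon bases for the rac GTPase activating protein, 9 and 1812 for PRC1, 7 and 1323 for kinesin eg-5, and 2 and 921 for eco1.

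The genes whose exon level was most like that of each member over the 6 libraries were other strongly reduced genes. Likeness is the root mean square difference between log2(CPM + 0.5) values, each gene set to its control mean, and the added 0.5 makes folds of genes near 0 look smaller. For the rac GTPase activating protein the nearest were a uveal autoantigen-like ankyrin repeat gene (Smp_129710, 0.0807), cyclin B (Smp_082490, 0.119) and MCM4 of the DNA helicase (Smp_172530, 0.194). Cyclin B drives entry into mitosis. It had 11.01 ± 1.01 CPM in controls and 0.507 ± 0.0678 CPM after irradiation.

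For PRC1 the nearest were a serine/threonine kinase (Smp_009600, 0.0894), a hypothetical protein (Smp_153520, 0.167) and MCM4 (0.198). For kinesin eg-5 they were MCM5 (Smp_143490, 0.0806), a gene named paramyosin (Smp_169970, 0.127) and myosin V (Smp_176000, 0.141). Eco1 lay nearest to the argonaute gene Smp_179320 (0.155), a hypothetical protein (Smp_176260, 0.211) and the same kinase Smp_009600 (0.215). Among the members, PRC1 and eco1 were the closest pair at 0.215, and the rac GTPase activating protein and kinesin eg-5 the farthest at 0.664. Each of these profiles is set mainly by the difference between the groups, on which the members were chosen.

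Other genes of the division machinery were found by product name, with the 4 members left out. A search by name misses genes that are named otherwise, so the list is not complete. Of 81 genes, 75 had enough reads to test, and 9 fell and none rose (edgeR quasi-likelihood test, called where p adjusted by Benjamini-Hochberg over all 8885 genes was under 0.05). That is 12% lower, against 2.49% of all tested genes, and 0 higher, against 0.619%. At an unadjusted p under 0.05, 25 were lower and 2 higher, and DESeq2 called 15 lower and 0 higher. Over all 8885 tested genes these counts were 1184 and 735 unadjusted, and 490 and 127 with DESeq2. The median log2 fold change was only -0.05, against 0.00 over all tested genes, and 66 were not called. Of the matches, 9 were set apart as naming another process, and without them 8 of 66 fell. The genes that remain still include transport motors, such as the kinesin heavy and light chains. The list count was 17 without irradiated B and between 6 and 11 without each of the others.

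**Figure D5:**
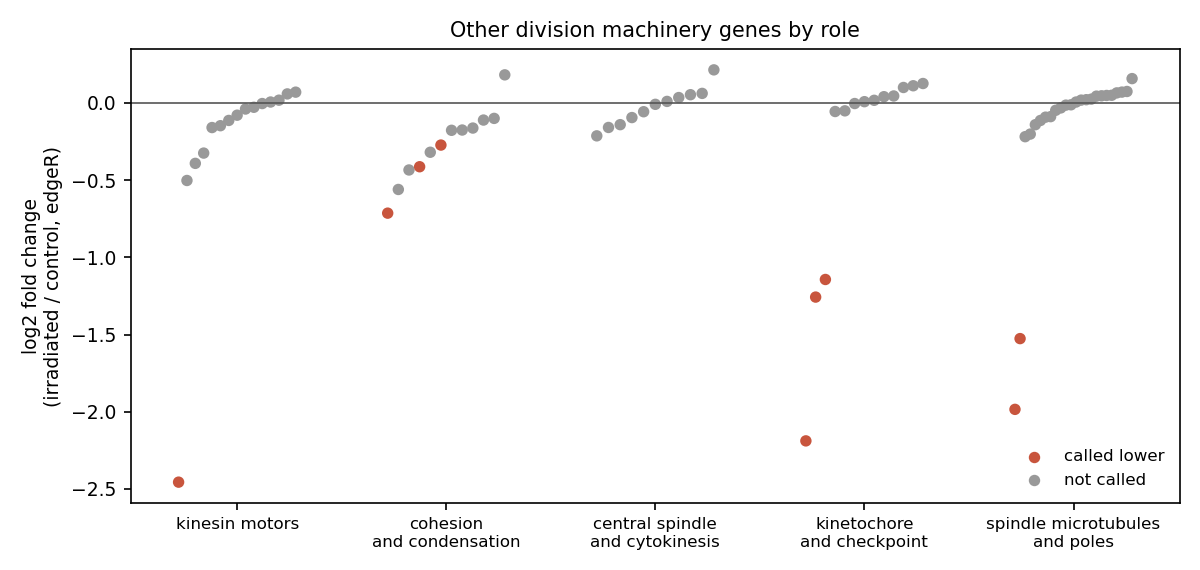
Log2 fold change (edgeR, irradiated over control) of the 75 tested division machinery genes by role, with 1 point per gene and called genes in red. The 9 called genes all lie below 0, down to -2.46 for kif4a. No gene found by name for the central spindle and cytokinesis role was called. The members and genes that the name search missed are not shown.

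Among 15 tested kinesin motor genes found by name, 1 fell and none rose, against 2.49% and 0.619% of all tested genes. The gene that fell was kif4a (Smp_173450), which in vertebrates works with PRC1 at the middle of the spindle. It went from 3.45 ± 0.289 CPM in controls to 0.595 ± 0.307 CPM, which is -2.46 on the log2 scale (SE 0.27, edgeR adjusted p = 0.000839). Its intronic reads were 144 in controls and 98 after irradiation. The most abundant transport motor genes were not called: the kinesin heavy chain (Smp_001040) had 1008 ± 35.0 CPM in controls and 980 ± 35.0 CPM after irradiation, and the kinesin light chain (Smp_000040) 190 ± 3.23 and 180 ± 4.22 CPM. Among all 15, 4 were lower at an unadjusted p under 0.05 and 0 higher, and DESeq2 called 2 lower and 0 higher, against 1184 and 735 unadjusted and 490 and 127 by DESeq2 among all 8885. Without irradiated B, 3 were called lower. The name search missed genes named rabkinesin-6, which are counted in no role here. In the edgeR fit of all libraries, Smp_128200 was called lower at -2.77 on the log2 scale (adjusted p = 2.65e-05), further than kif4a. Smp_137660 was also called lower, at -0.95 (adjusted p = 0.0421).

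Of 12 tested genes of cohesion and chromosome condensation, 3 fell and none rose, against 2.49% and 0.619% of all 8885 tested genes. The other 9 were not called. DESeq2 called 6 lower and 0 higher, against 490 and 127 of all tested genes. All 3 genes called by edgeR act on or in the cohesin ring that eco1 modifies. A pds5 gene (Smp_175490), which regulates the ring, went from 7.57 ± 0.394 to 4.60 ± 0.153 CPM, which is -0.71 on the log2 scale (SE 0.10, edgeR adjusted p = 0.00385). A second pds5-related gene (Smp_137790) changed by -0.41 (SE 0.08, adjusted p = 0.0322) in the same fit. An SMC3 gene (Smp_173700), named for the subunit that eco1 acetylates in yeast, changed by -0.27 (SE 0.06, adjusted p = 0.0385). In that fit Smp_136970 (-0.18, adjusted p = 0.0643) and Smp_145260 (-0.16, adjusted p = 0.221), which also carry the SMC3 name, were not called. One match, a guanidino kinase named Smc74 (Smp_194770), belongs to another process and had a log2 fold change of 0.18 and was higher at an unadjusted p under 0.05. The other 11 had log2 fold changes between -0.71 and -0.10. Their unadjusted p was under 0.05 in each, against 1184 of 8885 tested genes lower at that p. Their groups did not overlap, which held for 13.3% of tested genes in that direction. The number called was 6 without irradiated B and with DESeq2, and 1 when control B or C, or irradiated A or C, was left out, where the calls of Smp_137790 and Smp_173700 were lost. Without control A, Smp_173700 also missed the threshold (adjusted p = 0.0565).

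In the role of central spindle and cytokinesis, 0 of 11 tested genes found by name were called by edgeR or DESeq2. At an unadjusted p under 0.05, 2 were lower and 1 higher, against 1184 and 735 of the 8885 genes tested. Of those 8885, edgeR called 2.49% lower and 0.619% higher, and DESeq2 called 490 and 127. Some of the 11 name another process. They are DOCK1 (Smp_029990), a kelch-like ect2 interacting protein (Smp_096320) and the rac GTPases Smp_130230 and Smp_062300. DOCK1 is 1 of the 2 that were lower unadjusted. PRC1 and the rac GTPase activating protein were left out of this role as members. Genes that the name search missed, such as those named rabkinesin-6, are not in these counts. The most abundant members of the role are diaphanous (Smp_068720), a formin that builds actin filaments, and a septin (Smp_029890). Diaphanous had 267 ± 14.9 CPM in controls and 239 ± 2.17 CPM after irradiation, and the septin 326 ± 16.4 and 340 ± 11.8 CPM. The adjusted p of diaphanous was 0.114 with all libraries and 0.0471 without control A (edgeR). Leaving out control A or irradiated B gave 1 called gene in this role.

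A pair of other genes carry the PRC1 name and are given here for that reason. Smp_168220 had 3.28, 3.19 and 3.25 CPM in controls and 2.97, 2.87 and 2.97 CPM after irradiation, which is -0.14 on the log2 scale (SE 0.12, edgeR adjusted p = 0.562). Smp_169210, named PRC1-related, had 26.8, 25.8 and 26.9 CPM in controls and 32.2, 31.9 and 28.1 CPM after irradiation, with 0.21 (SE 0.07, adjusted p = 0.123). Neither was called, and the PRC1 gene Smp_016870 stood at 0.139 to 0.169 CPM in the same irradiated libraries. All exon reads of the 3 genes were unique, so reads shared between them are not in these counts.

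Of 13 tested kinetochore and checkpoint genes, 3 fell and none rose, and the counts were the same with DESeq2 and at an unadjusted p under 0.05. Over all 8885 tested genes, edgeR called 2.49% lower and 0.619% higher, and DESeq2 called 490 lower and 127 higher. Unadjusted, 1184 of all tested genes were lower and 735 higher. The checkpoint gene mad2 (Smp_056350), whose protein delays chromosome separation, went from 2.62 ± 0.105 to 0.572 ± 0.0993 CPM, which is -2.19 on the log2 scale (SE 0.20, edgeR adjusted p = 0.000192). Centromere protein A (Smp_040020), the histone variant that marks centromeres, went from 2.48 ± 0.417 to 1.04 ± 0.119 CPM, and cdc20 (Smp_004060), which activates the anaphase-promoting complex, from 4.65 ± 0.342 to 2.08 ± 0.329 CPM. Their log2 fold changes were -1.26 (SE 0.20, adjusted p = 0.00771) and -1.14 (SE 0.15, adjusted p = 0.00253) in the same fit. The other 10 had log2 fold changes between -0.06 and 0.13, and several of them are matches to the name MAD1.

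Among 24 genes of spindle microtubules and poles, 2 fell and none rose, while 5 were lower and 0 higher at an unadjusted p under 0.05, and DESeq2 called 4 lower and 0 higher. Among all 8885, edgeR called 2.49% lower and 0.619% higher. Unadjusted, 1184 of them were lower and 735 higher, and DESeq2 called 490 lower and 127 higher. TPX2 (Smp_151320), which starts microtubules near chromosomes, went from 1.42 ± 0.193 to 0.507 ± 0.151 CPM, which is -1.53 on the log2 scale (SE 0.27, edgeR adjusted p = 0.0170). That call was lost without control B (adjusted p = 0.0776) and without irradiated A (adjusted p = 0.0769), while without irradiated B 4 genes of this role were called lower. The other was a claspin-like gene (Smp_128210), matched through its name although claspin works at stalled replication forks. It went from 3.03 ± 0.0504 to 0.765 ± 0.103 CPM, with -1.98 (SE 0.17, adjusted p = 0.000177, edgeR). Its intronic reads were 251 in controls and 206 after irradiation.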

How the data were processed

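Per the file headers, the deposited table holds whole-number counts of exon, exon-exon, intron-exon and gene reads per library, total and unique, RPKM and exon length. It also has a fold change and a p-value computed by the authors; only the fold was used. The sources used here give no aligner, counter, build or annotation. Of 13305 rows, 2535 without exons, holding 0.654% to 1.40% of gene reads, were left out. Intronic reads are total gene minus total exon reads. This assumes that gene reads cover the introns of the gene model, as the headers do not define gene reads. All read kinds were scaled by the TMM library size of total exon reads.

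Total exon reads were filtered with filterByExpr (8885 genes) and tested with edgeR 4.0.16 in R 4.3.3, irradiated against control, with a call at an adjusted p under 0.05. DESeq2 1.42.0 and limma 3.58.1 on log2(RPKM + 0.5) were alternatives. Intervals are exact, binomial or conditional on the sum of both groups, with scipy 1.17.1. A count of 0 allows up to 3 reads, 0.101 to 0.171 CPM per library.

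Members and lists were chosen with earlier results of these data known. Named genes were the members, the 3 genes most like each, and in each role up to 4 called genes with the largest change, or the 2 most abundant where fewer than 2 were called. The list without 9 names of other processes and the intronic comparison among called genes were added after seeing the data. No sequences were used here.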

Additional observations from a re-analysis of the deposited data

How the results depend on the processing

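The exon and exon-exon log2 ratios of the 4 members moved by less than the spread between libraries under RLE scaling, no scaling factor, unique reads and each left-out library. So did the intronic ratios and shares, except that the intronic share of the rac GTPase activating protein in controls was 25.9% in unique reads, and the intronic log2 ratio of eco1 lay between -4.61 and -1.91 when a library was left out. That spread is wide where few reads are left: the intronic share of eco1 after irradiation lay between 6.25% and 20%. Counts of calls moved more. Over all genes, 221 lower and 55 higher became 490 and 127 with DESeq2, and 77 and 26 with at least 5 CPM in 3 libraries. A replicate block gave 851 and 277. Leaving out a library gave 119 to 723 lower and 16 to 129 higher. The limma fits called 140 lower at a pseudocount of 0.5 and 139 at 0.1. In the division list, 9 lower and 0 higher became 15 lower with DESeq2, 1 lower with at least 5 CPM in 3 libraries, which 6 of the 9 do not reach, and 20 lower and 1 higher with the block, where diaphanous was also called (adjusted p = 0.0425, edgeR). Leaving out a library gave 6 to 17 lower. The cause of the other moves was not tested. Whether the letters pair the libraries is not known. Deviations of same-letter libraries from their group means correlated at 0.04 for A, 0.18 for B and -0.10 for C. Libraries of unlike letters gave -0.21 to 0.18, and 3 libraries per group are too few to settle the question. Depth limits the members most, with 3 to 11 exon reads in each irradiated library.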
